A study of Homo sapiens with 12 samples.

Results

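The genes described here carry a LINC symbol with a number, and most are listed as long intergenic noncoding RNAs. They were detected in SK-N-DZ, an established human neuroblastoma cell line in which MYCN is amplified. They were chosen by the counts themselves: a row of the gene table was taken if its name is LINC followed only by digits and if at least 3 of the 12 libraries hold 10 or more raw counts for it. This gave 262 genes of the 43769 in the table, under 260 distinct names, because LINC01238 and LINC03021 each stand under 2 gene identifiers. Of the 2226 rows with such a name, 1196 had no count in any library. Since the rule reads the counts, the detection of these genes is a description and not a finding.

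The study compared a clonal line of SK-N-DZ with a doxycycline-inducible short hairpin against ARID1A, a DNA-binding subunit of the SWI/SNF chromatin remodeler, with and without interferon gamma (IFNγ), and asked how loss of ARID1A affects the IFNγ response. Total RNA was sequenced in 4 groups of 3 libraries: untreated cells (C, genotype label WT), doxycycline for 4 days (D, label shARID1A), IFNγ for 24 h (I, label WT) and both agents (DI, label shARID1A). The hairpin construct (Tet-pLKO-puro) is carried in all 4 groups, so WT means cells without doxycycline. No group received doxycycline without the hairpin, so the effects of the drug and of the hairpin cannot be told apart, and 1 clone stands for the cell line. The labels do not say whether the 3 libraries of a group came from separate cultures, so p-values measure only the spread between these libraries.

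Long intergenic noncoding RNAs are transcripts that are spliced and polyadenylated like mRNAs in many cases but hold no conserved long reading frame, and they are usually made at lower levels and in fewer cell types than mRNAs. Some act on the gene next to them or on chromatin, some bind proteins or microRNAs in the nucleus or cytoplasm, and for many no function is known. The number in a LINC symbol is given by the nomenclature committee in order of naming, so LINC genes form a class by name and not a family related by sequence.

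The 5 promoters below are shown because they belong to the 3 members that passed the test in a comparison (LINC00641 and LINC01342 for IFNγ, LINC02604 for doxycycline) and to the 2 with the smallest unadjusted p among the rest for IFNγ (LINC01415 without and LINC01270 with doxycycline). Each is 300 bases of RefSeq (GRCh38.p14), from 250 before to 50 after an annotated start, read 5′ to 3′ on the strand of the gene. Capitals mark matches, on either strand, to the IFNγ-activated site GAS (TTCNNNGAA), the interferon-stimulated response element ISRE (GAAA, any 2 bases, GAAA), the ATF4 and C/EBP composite element (TGATGNAA) and the E-box of MYC proteins (CACGTG). The windows are chr20:50292470-50292769 (LINC01270, plus strand), chr18:55781676-55781975 (LINC01415, minus), chr1:1136767-1137066 (LINC01342, plus), chr14:21206851-21207150 (LINC00641, minus) and chr7:66903870-66904169 (LINC02604, plus).
LINC01270: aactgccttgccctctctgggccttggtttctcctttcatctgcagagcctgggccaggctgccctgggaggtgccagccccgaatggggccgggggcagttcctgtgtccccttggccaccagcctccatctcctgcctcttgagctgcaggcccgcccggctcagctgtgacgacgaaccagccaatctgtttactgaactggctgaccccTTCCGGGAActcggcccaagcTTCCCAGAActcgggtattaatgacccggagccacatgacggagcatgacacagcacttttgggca
LINC01415: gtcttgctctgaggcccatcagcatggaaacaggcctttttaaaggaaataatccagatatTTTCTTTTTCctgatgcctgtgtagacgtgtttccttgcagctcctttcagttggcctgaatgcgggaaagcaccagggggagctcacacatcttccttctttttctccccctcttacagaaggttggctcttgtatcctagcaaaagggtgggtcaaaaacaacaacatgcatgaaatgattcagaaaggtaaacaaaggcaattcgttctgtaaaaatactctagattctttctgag
LINC01342: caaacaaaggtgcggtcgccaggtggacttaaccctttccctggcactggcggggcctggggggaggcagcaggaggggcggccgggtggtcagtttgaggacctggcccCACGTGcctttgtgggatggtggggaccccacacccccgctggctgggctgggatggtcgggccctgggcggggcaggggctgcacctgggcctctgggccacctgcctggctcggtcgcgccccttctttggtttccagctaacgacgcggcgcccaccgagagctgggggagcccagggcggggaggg
LINC00641: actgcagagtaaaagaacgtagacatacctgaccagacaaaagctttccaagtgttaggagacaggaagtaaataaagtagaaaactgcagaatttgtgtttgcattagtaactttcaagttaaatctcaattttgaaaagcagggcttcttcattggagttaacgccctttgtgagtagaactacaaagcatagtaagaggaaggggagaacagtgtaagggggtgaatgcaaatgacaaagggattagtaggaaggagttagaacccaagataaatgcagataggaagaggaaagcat
LINC02604: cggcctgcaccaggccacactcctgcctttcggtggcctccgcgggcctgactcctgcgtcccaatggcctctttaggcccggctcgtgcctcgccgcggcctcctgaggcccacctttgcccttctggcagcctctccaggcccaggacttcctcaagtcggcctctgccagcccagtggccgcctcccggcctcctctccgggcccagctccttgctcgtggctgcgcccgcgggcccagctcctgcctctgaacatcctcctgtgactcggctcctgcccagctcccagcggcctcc
The LINC01270 window holds 2 GAS matches that begin 37 and 16 bases before the start. The LINC01415 window holds 1 ISRE match 189 bases before the start, the LINC01342 window holds 1 E-box match 140 bases before it, and these letters occur nowhere in the LINC00641 and LINC02604 windows. LINC00641 and LINC01415 each have another start in RefSeq, and neither of those windows held a match. RefSeq promoters were found for 176 of the 260 member names, with 201 windows in all. Among them GAS occurred in 7.96% of windows against 7.66% of all 35116 windows of this length, ISRE in 1.99% against 3.57%, the ATF4 and C/EBP element in 0.498% against 3.62%, and the E-box in 9.45% against 7.26%. GAS matches stand in windows of 15 member names, not all of which are listed here. Besides LINC01270 they include LINC00487 (2), LINC01215 (1) and LINC01232 (1), of which the first and the second had overlapping groups in both IFNγ comparisons. Overlapping matches were all counted, and a match is only a run of letters.

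The libraries held 16469832 to 21790869 counts, and the members together took 0.126% to 0.162% of them. IRF1, GBP1, TAP1 and PSMB9, genes that IFNγ is known to induce, rose in both IFNγ comparisons (log2 fold changes of 7.29 or more), and CXCL10 did not pass the filter on low counts. ARID1A mRNA was at 197, 186 and 165 CPM (counts relative to the TMM-scaled library size) for C, at 197, 159 and 158 for D, at 192, 203 and 194 for I and at 151, 133 and 148 for DI. D overlapped C while DI lay below I, and neither difference passed the test (edgeR adjusted p = 0.788 for D vs C and 0.115 for DI vs I). By qPCR and Western blot the study reports ARID1A knockdown in its SK-N-DZ hairpin clones. All 10 adrenergic and all 6 mesenchymal neuroblastoma markers examined passed the filter on low counts, so passing it does not tell these states apart. None of the 10 was called for D vs C. Among them TH was at 47.3, 3.13 and 74.7 CPM in C and 1.33, 7.04 and 0.695 in D. Its groups overlapped, and for number 2 the D library was the higher. VIM, a mesenchymal marker, was at a mean of 108 CPM over the 12 libraries. Of 7 markers of leukocytes, epithelium and endothelium, 2 passed the filter (EPCAM and KRT8, group means of at most 1.48 CPM). Of 6 mesenchymal markers only FN1 was called, at 496 CPM in C and 2701 in I, and its part in the results was not tested. In bulk RNA, fewer cells of a type and less RNA per cell cannot be told apart.

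Libraries that share a replicate number also resembled each other across the 4 groups, and number 3 stood apart for many members. The number of members with at least 10 counts was 199, 204 and 171 for C, 203, 209 and 174 for D, 217, 207 and 187 for I and 211, 217 and 194 for DI, so the library with number 3 was the lowest of its group in all 4 groups. The rule itself reads these detection counts, so they are a description. Among all other genes the number with at least 10 counts was lowest for number 3 in C (14297) and D (14416), but not in I (14771, against 14565 for number 2) or DI (14961, the highest). Its total count was the lowest of the group in C and D and the highest in DI. LINC00958 was at 6.09, 7.002 and 0.436 CPM for C, 4.05, 6.57 and 0.116 for D, 5.15, 7.47 and 0.314 for I, and 3.80, 4.82 and 0.0450 for DI. Every number 3 library thus lay far below the other 2 of its group, while the 4 groups overlapped. LINC02381, in the HOXC cluster, ran the other way: its number 3 libraries lay between 31.3 and 44.1 CPM and the other 8 between 6.65 and 17.2. LINC00667 was at 21.1 to 28.1 CPM in number 3 and at 34.6 to 51.8 in the others.

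**Figure D1:**
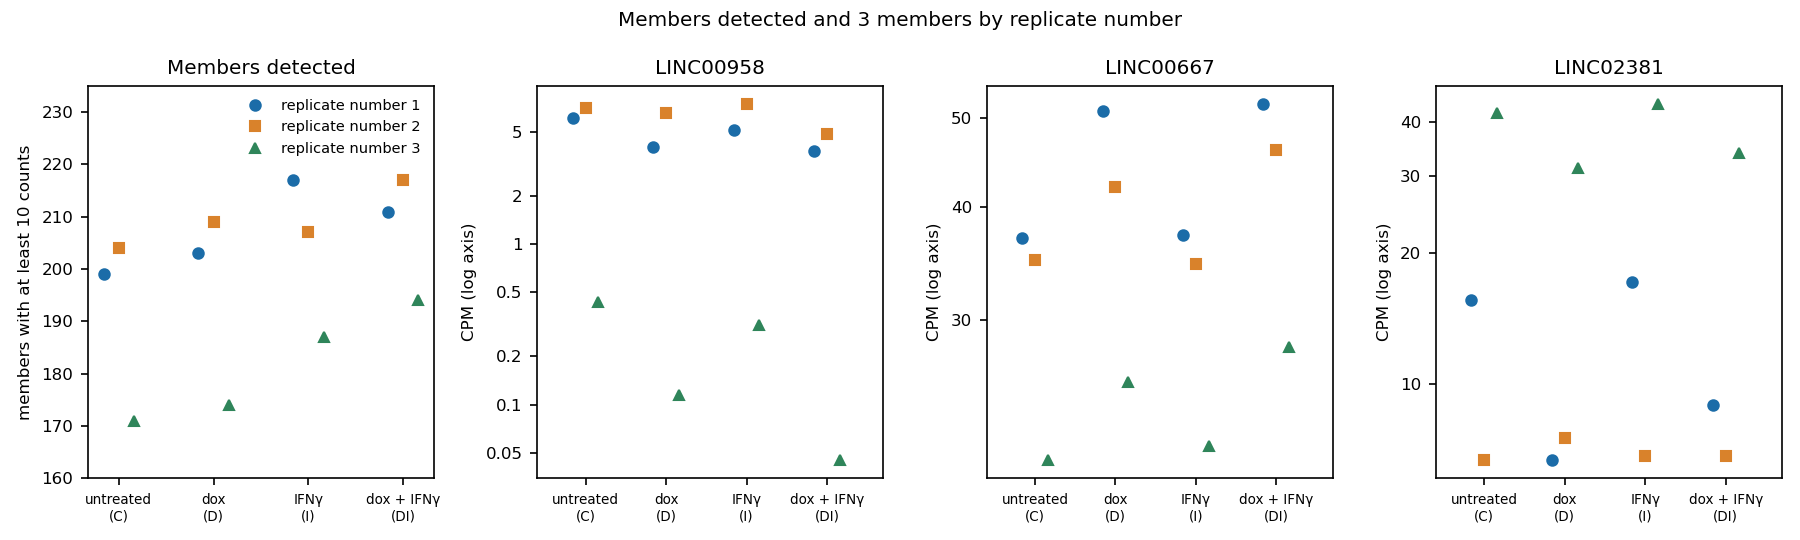
Left, the number of members with at least 10 counts in each library (axis from 160); the other 3 panels give CPM on a log axis for LINC00958, LINC00667 and LINC02381, by group, with a symbol for each replicate number. In every group the number 3 library has the fewest members detected, the lowest LINC00958 and LINC00667 and the highest LINC02381.

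In a model with both group and replicate number, 97 of the 253 members tested differed between numbers (edgeR adjusted p under 0.05), which is 38.3% beside 44% of all genes. Number 3 was lower than number 1 for 52 members (20.6%, beside 13.2% of all genes) and higher for 12 (4.74%, beside 11.2%). Against number 2 it was lower for 78 members (30.8%, beside 19.9%) and higher for 19 (7.51%, beside 19.7%). These counts and the 3 example genes were taken up after the detection counts had been seen. What the numbers stand for is not given in the labels. Because of this pattern, the results below for members named for a comparison are given with and without the number as a block.

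The members were low. Their mean level over the 12 libraries had a median of 1.38 CPM and a range from 0.242 to 82.2, with 38 members at 10 CPM or more and 115 under 1 CPM. Per kilobase of merged exons, so that genes of different length can be compared, the median was 0.675 CPM per kb, beside 5.72 for the 13500 protein-coding genes tested. A few members held much of the signal: the 10 highest took 31.1% to 34.5% of all member CPM in a library and the 20 highest 48.8% to 53.5%. Members' share of all counts was 0.138% ± 0.00989 for C, 0.147% ± 0.0129 for D, 0.133% ± 0.00799 for I and 0.140% ± 0.0102 for DI (mean ± SD, n = 3), and the 4 groups overlapped. The rule's edge lay among very low genes: the 23 members with 10 counts in exactly 3 libraries had 55 to 124 counts in total (median 78), and the 27 rows left out with 10 counts in 2 libraries had 46 to 102 (median 66). Of the members, 122 had 10 or more counts in all 12 libraries. The biological coefficient of variation between libraries of a group had a median of 0.407 for the members tested and 0.213 for all genes tested.

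**Figure D2:**
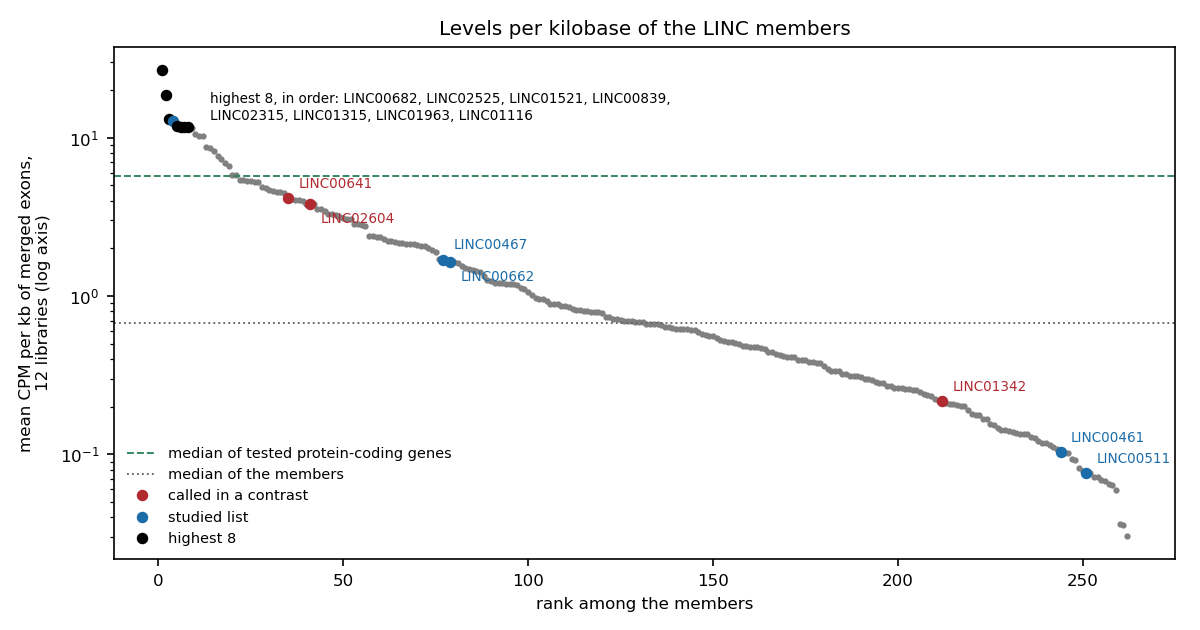
Mean level per kilobase of merged exons over the 12 libraries (CPM per kb, log axis) for the 262 members in rank order (red, called in a contrast; blue, among the studied genes; black, the highest 8); dashed and dotted lines give the medians of the protein-coding genes tested (5.72) and of the members (0.675). LINC00682 leads at 26.7 CPM per kb, and the members called in a contrast are spread over the range, with LINC01342 at 0.217.

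The highest member per kilobase was LINC00682 (chr4:41872747-41882955, minus strand), at 26.7 CPM per kb. Its libraries were at 60.3, 116 and 90.5 CPM for C, 51.3, 63.8 and 101 for D, 77.7, 116 and 85.1 for I, and 66.5, 64.5 and 94.4 for DI, and these groups overlapped in all 4 comparisons. LINC02525 followed at 18.7 CPM per kb, LINC01521 at 13.04, LINC00839 at 12.8, LINC02315 at 11.8, LINC01315 at 11.7, and LINC01963 and LINC01116 both at 11.6. Each of these 8 overlapped the next in this order over the 12 libraries. LINC01521 begins 545 bases from PATZ1, a zinc finger repressor, in the opposite direction, LINC01963 lies 10.7 kb from XRCC5, the Ku80 subunit of DNA end joining, and LINC01116 lies near the HOXD cluster.

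Of 12 LINC genes listed because they have been studied in other settings, 5 were members. LINC00839 was at 23.6 to 35.4 CPM over the 12 libraries and LINC00662 at 9.62 to 20.7. LINC00467, described as a MYCN-repressed RNA in neuroblastoma, was at 5.59, 6.26 and 4.92 CPM for C, 7.20, 10.2 and 9.03 for D, 8.46, 6.54 and 7.76 for I, and 7.96, 8.77 and 7.97 for DI. Every D and I library lay above every C library, at a log2 fold change of 0.66 (SE 0.188) for D vs C with an edgeR adjusted p of 0.136, and 0.0349 with the replicate block. LINC00511 was at 0.927 to 3.08 CPM and LINC00461, a brain RNA, at 0.0497 to 1.47, and their groups overlapped in all 4 comparisons. LINC00461 lies 26.1 kb from MEF2C, a neuronal transcription factor, which was at a mean of 0.628 CPM.

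Few members were called for IFNγ or doxycycline in the fit without the replicate block, and more with it. The members were low, with a wider median spread between libraries than all genes tested. A member not called is therefore not shown to be unchanged. Counts were fitted over all 15828 genes that passed the filter, of which 253 are members, and a gene is called at a Benjamini-Hochberg adjusted p under 0.05 in edgeR's two-sided quasi-likelihood test. For I vs C 2 members were called, 0.791% beside 2.21% of all genes, with LINC01342 higher and LINC00641 lower. For DI vs D the same 2 were called in the same directions (0.791% beside 1.72%). LINC01342 met the rule through IFNγ libraries alone, so its part in both shares is in part built in by the choice of members. For D vs C 1 member was called, LINC02604, which was higher (0.395% beside 1.23%). For DI vs I no member was called, beside 0.67% of all genes, with 19 (7.51%) at an unadjusted p under 0.05 beside 12.2% of all genes, and 2 called in DESeq2 beside 4.02% of all genes. For the interaction, which asks whether the IFNγ effect differed with doxycycline, no member was called, beside 0% of all genes, with 3 (1.19%) at an unadjusted p under 0.05 beside 0.625% of all genes, and none in DESeq2 beside 0.0127%. The median log2 fold change of the 253 members was 0.00844 for I vs C, −0.00714 for DI vs D, 0.0216 for D vs C and 0.0351 for DI vs I, and that of all genes was −0.0081, −0.012, −0.00118 and −0.00678.

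With the replicate number as a block the counts rose, as they did for all genes. These member counts are out of 253 tested, while the values beside them are percentages of all genes tested. For I vs C 11 members were called (beside 6.02% of all genes), 9 higher (beside 4.88%) and 2 lower (beside 1.14%). The 9 include LINC01342 and LINC02577, which met the rule through IFNγ libraries alone. For DI vs D 3 were called, LINC01342 among them, beside 4.46%. For D vs C 17 were called (beside 13.9%), 9 higher (beside 6.23%) and 8 lower (beside 7.67%). For DI vs I 12 were called (beside 10.5%), 8 higher (beside 3.85%) and 4 lower (beside 6.62%), and for the interaction none, beside 0%. The blocked counts rest on which numbers are kept, for members as for all genes. Without number 1 they were 2, 0, 2 and 1 for I vs C, DI vs D, D vs C and DI vs I, beside 2.16%, 1.56%, 1.57% and 1.16% of all genes. Without number 2 they were 5, 3, 29 and 33, beside 6.2%, 4.9%, 22.2% and 20.4%. Without number 3 they were 2, 2, 1 and 0, beside 2.67%, 2.11%, 1.4% and 0.68%. Counted without a test, the 2 groups did not overlap for 31 of the 253 members in I vs C (beside 15.1% of all genes). The numbers were 19 in DI vs D (beside 9.55%), 45 in D vs C (beside 19.2%) and 36 in DI vs I (beside 16.6%).

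**Figure D3:**
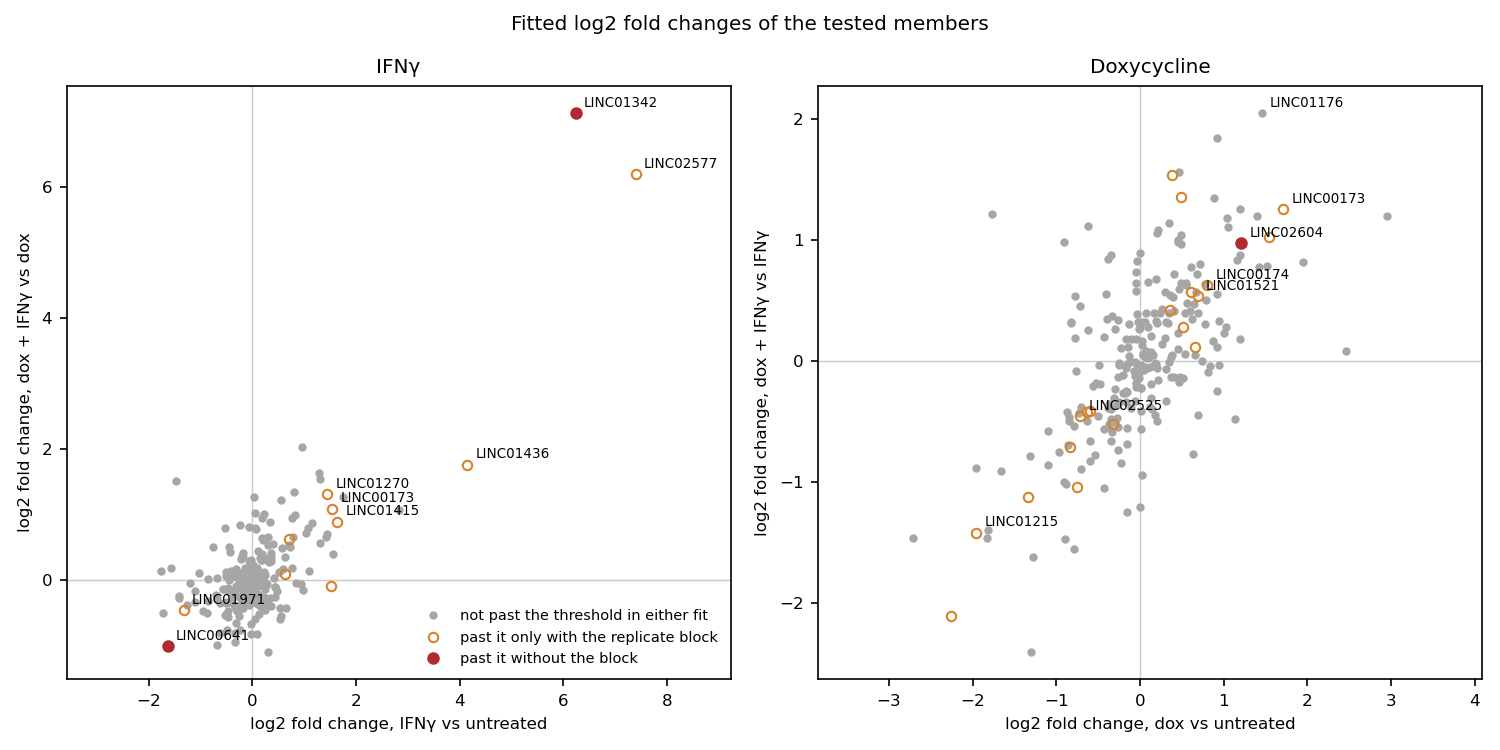
Fitted log2 fold changes of the 253 members tested: left, IFNγ without (x axis) and with (y axis) doxycycline; right, doxycycline without (x axis) and with (y axis) IFNγ. Filled red points passed the adjusted threshold in at least 1 of the 2 comparisons of the panel, open orange points only with the replicate block; LINC01342 and LINC02577 had no count in C and D, so their positions depend on the prior count of the fit and are no measure of size.

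LINC00641 was the member with the smallest adjusted p. It has 2 merged exons of 5715 bases in all (chr14:21200079-21206900, minus strand, GENCODE 29), and its level was 35.96, 38.8 and 42.4 CPM in C and 12.02, 12.3 and 13.4 in I. With doxycycline it was 33.1, 26.8 and 27.2 in D and 15.2, 16.8 and 11.3 in DI. All 6 libraries with IFNγ lay below all 6 without it. In I vs C it fell by 1.64 on the log2 scale (SE 0.161, edgeR adjusted p = 0.000118), and in DI vs D by 1.01 (SE 0.159, edgeR adjusted p = 0.00532). With the replicate block the edgeR adjusted p was 5.75e-05 and 0.0025. Both calls held when any 1 library was left out (edgeR adjusted p up to 0.00152 and 0.0300), and the second was lost without number 3 in every group (edgeR adjusted p = 0.0590) and when only the D and DI libraries were fitted (0.0901). The difference between the 2 falls was 0.63 (SE 0.223) and did not pass the test. D lay below C in every library at a log2 fold change of −0.43 (SE 0.156, edgeR adjusted p = 0.235). Its neighbour HNRNPC, an abundant RNA-binding protein gene 2.24 kb away on the same strand, was at 712 CPM in C and 675 in I, with a log2 fold change of −0.08 (SE 0.106, edgeR adjusted p = 1.00). NDRG2, ARHGEF40, ZNF219, RPGRIP1 and SUPT16H, the other coding genes tested within 150 kb, had I vs C log2 fold changes between −0.22 and 0.03, none of them called.

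LINC01342 was counted only in libraries with IFNγ. It is 1 of 9 members that reached 10 counts in IFNγ libraries alone, so it met the rule through the libraries where it is high, and its difference is in part built in by the choice of members. It lies at chr1:1137017-1144056 on the plus strand, and all 6 C and D libraries held 0 counts of it. In I it had 8, 13 and 7 counts (0.396, 0.709 and 0.367 CPM) and in DI 23, 21 and 11 (1.18, 1.08 and 0.495 CPM). Against a floor of 3 counts per library, which covers counting error only, I was at least 2.83-fold higher than C and DI at least 5.83-fold higher than D (edgeR adjusted p = 0.0335 and 0.0156). These are low counts, and the call in I vs C was lost in each of the 6 fits that leave out a library (edgeR adjusted p from 0.0760 to 0.113) and that in DI vs D in 3 of 6, without D replicate 1, DI replicate 1 or DI replicate 2 (0.0523, 0.0690 and 0.0646). Without number 3 in every group both calls were lost (edgeR adjusted p = 0.153 and 0.0891). With all 12 libraries and the replicate block both were kept (edgeR adjusted p = 0.0257 and 0.0119). As the membership of LINC01342 rests on IFNγ libraries, none of these p-values is support for a difference. ISG15, the ubiquitin-like interferon effector, lies 122 kb away on the same strand and went from 13.7 CPM for C to 263 for I and from 10.3 for D to 149 for DI. The 9 other coding genes tested within 150 kb, from HES4 to ACAP3, had I vs C log2 fold changes between −0.33 and 0.25, none of them called.

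LINC01270 and LINC01415 had the smallest unadjusted p among the members not called, the former in DI vs D and the latter in I vs C. LINC01270 (chr20:50292720-50314922), whose promoter holds the 2 GAS matches printed above, was at 7.01, 3.77 and 3.80 CPM in C and 14.8, 14.02 and 10.9 in I. It was at 5.05, 4.92 and 4.05 in D and 12.5, 15.9 and 6.67 in DI, so the groups with and without IFNγ did not overlap within a doxycycline label. Its log2 fold changes were 1.45 (SE 0.335, edgeR adjusted p = 0.0544) in I vs C and 1.32 (SE 0.334, 0.111) in DI vs D, and with the replicate block the adjusted p was 0.00359 and 0.0109. It overlaps an exon of another gene, and without strand information in the sources used here the reads of the 2 cannot be told apart. CEBPB, a C/EBP transcription factor gene 100 kb away, was at 26.5 CPM for C and 50.5 for I (log2 fold change 0.93, SE 0.556, edgeR adjusted p = 0.865).

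LINC01415 (chr18:55776727-55781721, minus strand), with the ISRE match printed above, was at 0.553, 0.944 and 0.686 CPM for C, 1.57, 1.40 and 0.695 for D, 2.13, 2.73 and 1.99 for I, and 2.26, 2.62 and 1.98 for DI. Every IFNγ library was higher than every library without it. The log2 fold change was 1.63 (SE 0.373, edgeR adjusted p = 0.0505) in I vs C and 0.89 (SE 0.360, 0.623) in DI vs D, and with the replicate block 0.0108 and 0.157. TCF4, a basic helix-loop-helix factor gene 112 kb away on the same strand, rose from 183 CPM in C to 299 in I (log2 fold change 0.71, SE 0.104, edgeR adjusted p = 0.00273) and fell from C to 121 in D (fold change of −0.59 on the log2 scale, SE 0.104, 0.0252).

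**Figure D4:**
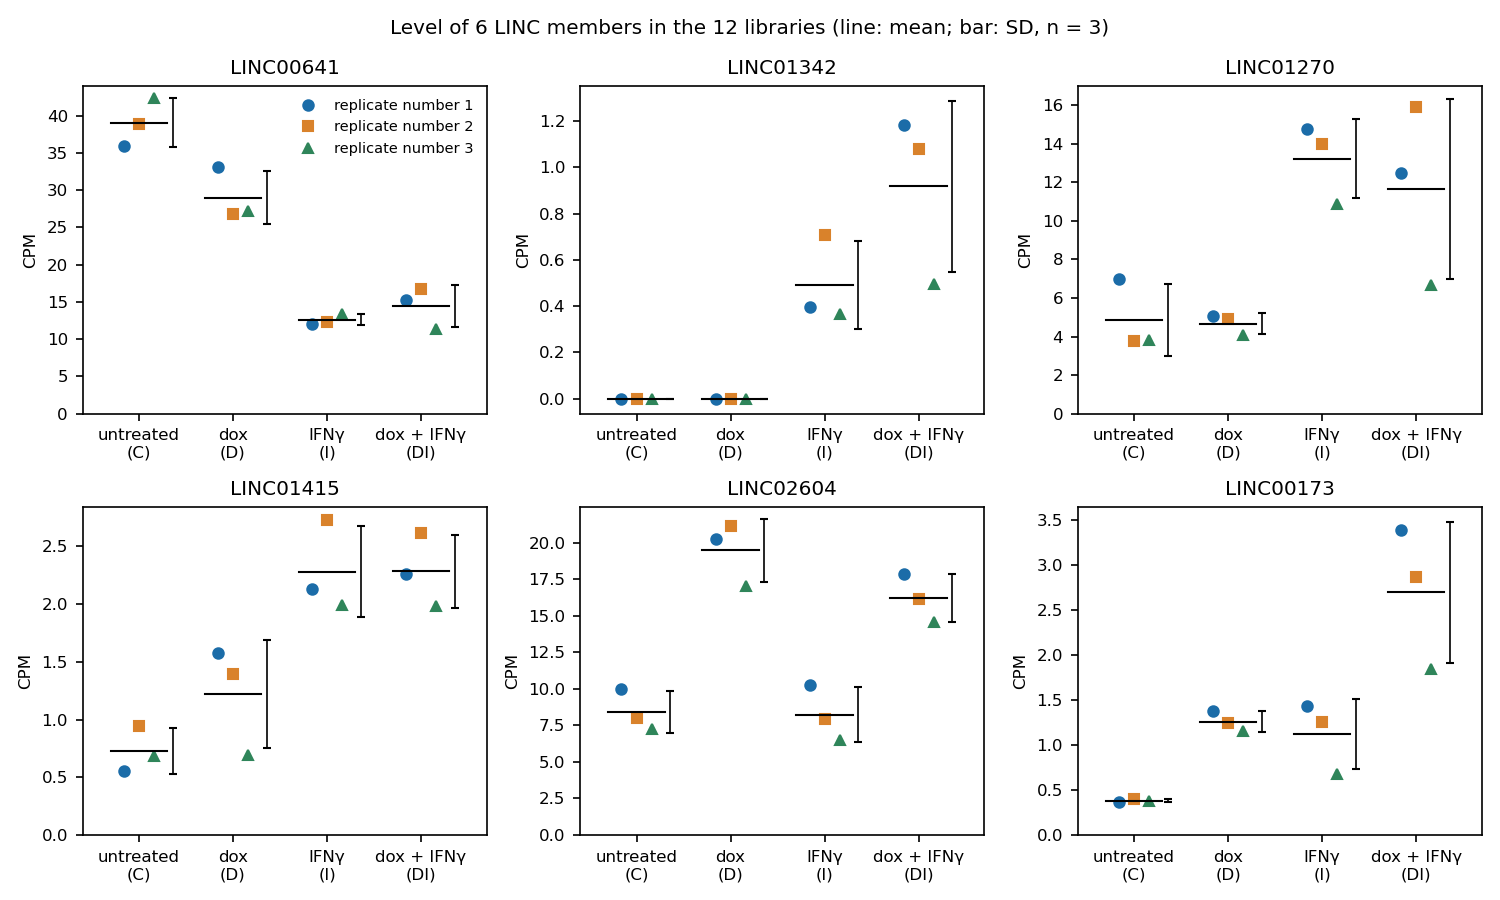
CPM of 6 members in the 12 libraries, by group; symbols mark the replicate number, lines the group means and bars the SD (n = 3). LINC00641 is lower (12.02 to 13.4 in I, 35.96 to 42.4 in C) and LINC01342, LINC01270 and LINC01415 are higher in each IFNγ group than in its partner without IFNγ, and LINC02604 (17.0 to 21.2 in D, 7.23 to 10.02 in C) and LINC00173 are higher in each doxycycline group than in its partner without doxycycline.

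Of the 9 members that edgeR called for I vs C with the block and not without it, 8 were higher in I and 1 was lower. DESeq2 without a block also called LINC01270, LINC01415, LINC01436 and LINC01232. Besides LINC01270, LINC01415 and LINC00173, the 9 that edgeR called only with the block were LINC01436, LINC02577, LINC01232, LINC02609, LINC02693 and LINC01971. These were taken up after their values were seen. LINC01436 (chr21:36005338-36007838) was at 0.246, 0 and 0 CPM for C and 1.83, 1.96 and 0.681 for I, and at 0.572, 0.569 and 0.232 for D and 2.46, 1.38 and 0.901 for DI. It was higher in every IFNγ library than in every library without (edgeR adjusted p = 0.0674 in I vs C, 0.00390 with the block). It begins 671 bases from RUNX1, a transcription factor gene known from blood formation, and runs in the opposite direction. RUNX1 had no count for C and rose to 2.29 CPM ± 1.23 for I (edgeR adjusted p = 0.00657), and from 0.0649 ± 0.0724 for D to 3.45 ± 1.68 for DI (SD, n = 3; edgeR adjusted p = 0.0138). LINC02577 had 0 counts in all C and D libraries, 14, 47 and 1 in I and 14, 14 and 0 in DI, so the number 3 libraries held next to none of it and I replicate 2 held most of the I counts. It too met the rule through IFNγ libraries alone, and its counts are a description. Its adjusted p was 0.396 in edgeR for I vs C and 0.0231 with the block. As its membership rests on IFNγ libraries, neither value is support for a difference.

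LINC01232, LINC02609 and LINC02693 were likewise higher in I than in C, at log2 fold changes of 1.53, 0.70 and 0.62 and edgeR adjusted p of 0.0541, 0.200 and 0.309, with 0.0256, 0.0303 and 0.00704 in the block. LINC01232 overlaps TM9SF2 on the opposite strand, and LINC02693 is listed as the coding gene C17orf51 in GENCODE 29. In DI vs D the log2 fold changes of the 3 were −0.08, 0.63 and 0.09, and none passed. LINC01971 was the member that was lower in the blocked model beside LINC00641: it was at 1.72, 2.23 and 3.18 CPM for C, 0.495, 0.873 and 1.47 for I, 2.57, 3.21 and 4.29 for D, and 1.75, 1.79 and 3.74 for DI. Its groups did not overlap in I vs C but did in DI vs D. LINC02308, which did not pass the filter and was not tested, had 0 counts in C, 10, 32 and 2 in I and 0, 10 and 0 in DI, and it is a member through 3 IFNγ libraries alone.

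For doxycycline, LINC02604 was the member called. It is a single-exon gene of 3441 bases (chr7:66902857-66906297, plus strand, named AC073335.2 in GENCODE 29), and the RefSeq start used for the printed promoter lies inside it. It was at 10.02, 7.995 and 7.23 CPM for C and 20.2, 21.2 and 17.0 for D, and at 10.2, 7.96 and 6.498 for I and 17.9, 16.2 and 14.6 for DI. Every doxycycline library lay above every library without it. It rose by a log2 fold change of 1.21 in D vs C (SE 0.196, edgeR adjusted p = 0.0174; 0.000415 with the block) and stood at 0.98 in DI vs I (SE 0.196, 0.0546; 0.00127 with the block). The D vs C call was lost in 4 of the 6 fits that leave out a library, without C replicate 2 or 3 or D replicate 1 or 2 (edgeR adjusted p from 0.0608 to 0.0980), without number 3 in every group (0.163) and with only the C and D libraries fitted (0.0929). TMEM248, 14.9 kb away on the same strand, had a log2 fold change of 0.17 (SE 0.132) in D vs C and RABGEF1, SBDS and TYW1 of 0.42, 0.01 and 0.23, none of them called.

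LINC00173 had values that differed by group for both agents without passing the test. It was at 0.369, 0.397 and 0.374 CPM for C, 1.38, 1.24 and 1.16 for D, 1.43, 1.25 and 0.681 for I, and 3.39, 2.87 and 1.85 for DI. Single agents overlapped each other, C lay below and DI above all other libraries. The D vs C log2 fold change was 1.71 (SE 0.384, edgeR adjusted p = 0.0634; 0.0102 with the block), that of DI vs I 1.26 (SE 0.357, 0.173; 0.0231) and that of I vs C 1.55 (SE 0.384, 0.0794; 0.0258). LINC01176 was at 0.246, 0.149 and 0.436 CPM for C, 0.715, 0.983 and 0.579 for D, 0.396, 0.109 and 0.210 for I, and 0.565, 1.54 and 0.946 for DI. Its DI vs I log2 fold change of 2.05 (SE 0.596) had an edgeR adjusted p of 0.180 and 0.0625 with the block.

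LINC02525 was the member with the smallest unadjusted p among those lower with doxycycline. It was at 39.3, 30.5 and 36.2 CPM for C, 19.7, 24.6 and 20.2 for D, 30.9, 32.1 and 33.2 for I, and 21.9, 28.7 and 19.7 for DI, so doxycycline groups lay below their partners without overlap. The log2 fold change was −0.72 in D vs C (SE 0.161, edgeR adjusted p = 0.0639; 0.0119 with the block) and −0.45 in DI vs I (SE 0.1605, 0.273; 0.0728). LINC02315 was similar, at 8.97, 11.4 and 8.66 CPM for C and 5.86, 6.88 and 6.02 for D, and at 9.45, 11.02 and 8.54 for I and 7.29, 7.64 and 6.76 for DI (log2 fold change of −0.63 in D vs C, SE 0.174, edgeR adjusted p = 0.122; 0.0116 with the block). LINC01521 lay higher with doxycycline, at 17.5, 22.5 and 16.5 CPM for C and 31.8, 27.7 and 31.4 for D, and 18.7, 24.2 and 21.0 for I and 29.7, 27.1 and 35.9 for DI (log2 fold changes of 0.69 and 0.54, edgeR adjusted p = 0.0782 and 0.197; 0.0166 and 0.0484 with the block). PATZ1, 545 bases away, was at 114 CPM ± 8.19 in C and 132 ± 1.46 in D (SD, n = 3; log2 fold change 0.22, SE 0.0857, edgeR adjusted p = 0.283).

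The other members that passed for doxycycline in the blocked model were taken up after their values were seen. In both D vs C and DI vs I these were LINC00174, LINC00667 and LINC02593 on the higher side, and LINC01215, LINC01315 and LINC01694 on the lower side. LINC01215 was at 2.46, 3.43 and 2.80 CPM for C, 0.286, 1.14 and 0.811 for D, 1.93, 3.49 and 2.04 for I, and 0.565, 1.64 and 0.586 for DI. Its doxycycline groups did not overlap their partners (log2 fold changes of −1.96 and −1.42, edgeR adjusted p = 0.134 and 0.322; 0.00577 and 0.0251 with the block). LINC01694 differed mostly by replicate number: it was at 25.1, 8.09 and 19.5 CPM in C and 11.1, 4.24 and 14.1 in D, so the groups overlapped although D was lower than C for each number, at an edgeR adjusted p of 0.606 and of 0.0106 with the block. LINC00174, which overlaps TPST1 on the opposite strand, was at 11.99, 12.7 and 8.17 CPM in C and 19.7, 23.5 and 13.96 in D. Of the rest, LINC01278, LINC01529 and LINC00467 were higher and LINC01915, LINC02623 and LINC02987 lower in D vs C only, and LINC00896 and LINC01971 higher and LINC01116 lower in DI vs I only. The difference between the 2 doxycycline comparisons did not pass for any of them.

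By position, the members lay closer to coding genes than the LINC rows that were not detected at this level. The median distance from a member to the nearest protein-coding gene was 17189 bases, against 63863 for the other 1964 LINC rows. A coding gene was overlapped by 24 members (9.16%, against 3.51%), and 16 members (6.11%, against 1.12%) lay within 2 kb of a coding gene that runs in the opposite direction from a shared start region. Members' merged exons had a median of 2417 bases against 1038.5, with 4 exons in both, and these values are given as a description. In GENCODE 29, 214 members are of type lincRNA and 48 of another type. The other types include processed transcript (18), antisense (16), transcribed unprocessed pseudogene (8) and protein-coding (2). Of all members, 130 overlap another gene of any type, 76 of them in an exon. MYCN, which is amplified in this line, had no member near it: the closest, LINC01376, lay 3039444 bases away and was at 0.637 CPM.

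Across 219 pairs of a member and its nearest coding gene, both tested, the I vs C log2 fold changes had a Pearson correlation of 0.341 and a Spearman correlation of 0.168, with the same sign in 113 pairs (51.6%). In DI vs D the values were 0.174 and 0.111, in D vs C 0.0980 and 0.0781, and in DI vs I −0.0432 and 0.0153. The pairs share libraries and scaling, and these correlations across genes are a description. The nearest coding gene was called in 5 of the 219 pairs in each IFNγ comparison, 2.28% beside 2.21% of all genes for I vs C and 1.72% for DI vs D, so the share was near that of all genes. RUNX1 and TCF4 have been given with LINC01436 and LINC01415. CMPK2, an interferon-induced mitochondrial kinase, rose from 12.4 to 55.7 CPM in I (log2 fold change 2.16, SE 0.279, edgeR adjusted p = 0.000992), while LINC00487, 70.3 kb away, was at 1.97, 2.19 and 0.748 CPM in C and 1.53, 2.29 and 1.83 in I. NOD1, an intracellular sensor of bacterial peptides, rose from 15.4 to 45.7 CPM (log2 fold change 1.56, SE 0.150, edgeR adjusted p = 9.27e-05), while LINC01176, 12.2 kb away, was at a mean of 0.277 in C and 0.238 in I. LY6E near LINC02904 made the fifth pair.

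Long noncoding RNAs without a LINC number, listed from general knowledge, give a frame for the members. Of 60 listed, 58 were in the table and 47 were tested. For I vs C 6 of the 47 were called (12.8% beside 2.21% of all genes), 5 higher and 1 lower, and for DI vs D 5 (10.6% beside 1.72%), 4 higher and 1 lower. The list includes RNAs beside interferon-induced genes, and PSMB8-AS1, IRF1-AS1, BISPR and HCP5 among the calls are such RNAs, so these shares are not a rate for long noncoding RNAs. PSMB8-AS1 went from 0 CPM in all C and D libraries to 15.0, 14.9 and 18.3 in I and 12.1, 9.90 and 12.2 in DI (edgeR adjusted p = 1.00e-05 and 1.46e-05). IRF1-AS1, BISPR and HCP5, which lie beside IRF1, BST2 and the class I HLA genes, rose to means of 15.8, 23.2 and 2.32 CPM in I from 0.140, 0.854 and 0 in C. BANCR had no count in C and 14.6, 23.8 and 1.52 CPM in I (edgeR adjusted p = 0.0472; 0.0888 in DI vs D), with number 3 lowest as for LINC02577. DANCR fell from 102, 99.5 and 96.1 CPM in C to 59.3, 44.3 and 37.5 in I (edgeR adjusted p = 0.00332). None of the 47 was called for D vs C or the interaction, and 1 was for DI vs I (2.13% beside 0.67%): MALAT1, at 68.5, 65.9 and 49.3 CPM in I and 123, 128 and 96.3 in DI (log2 fold change 0.92, SE 0.163, edgeR adjusted p = 0.0334). MYCNOS, antisense to MYCN, was at 42.3 CPM in C and 30.7 in I and was not called. Without strand information, reads of PSMB8-AS1, IRF1-AS1 and MYCNOS cannot be told apart from those of any coding gene they overlap.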

How the data were processed

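Total RNA of 12 SK-N-DZ cultures or aliquots (the labels do not say which) was sequenced on an Illumina instrument with paired reads. The deposited table, made by the authors, holds raw read counts per gene, and the aligner, the counting tool, the strand setting and the annotation are not given in the sources used here. The authors' tables of group comparisons (fold changes and p-values) were not used, nor were 18 per-library columns in them whose names match no sample label. Samples were grouped by their titles. Gene identifiers all matched GENCODE 29 (GRCh38), which gave positions, types and exon lengths, and promoters came from RefSeq (GRCh38.p14).

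Counts of all genes were filtered (filterByExpr, minimum count 10), scaled by TMM and given to the quasi-likelihood test of edgeR 4.0.16 (with R 4.3.3 and limma 3.58.1), all 12 libraries in 1 fit, with Benjamini-Hochberg adjustment over the 15828 genes left. CPM divides counts by the TMM-scaled library size, and 3 counts correspond to 0.135 to 0.187 CPM, a floor that covers counting error only. SE is the log2 fold change divided by the square root of the F statistic. Of the 262 members, 253 passed the filter. The alternatives were DESeq2 1.42.0, other scalings, no filter, a stricter threshold, fewer libraries and a replicate block. Replicates of a group differed by more than counting error (chi-square per gene 19.0 to 82.8 over 12 pairs, about 1 if counting were the only error). The replicate numbers pair the libraries: deviations from the group means correlated at 0.321 to 0.839 for the 18 pairs with the same number and at −0.663 to 0.183 for the 36 others. The labels give no meaning to the numbers. Python 3.11.15 read promoters and annotation.

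The members and the lists were chosen with earlier results of these data known. Named members were the 8 highest per kilobase, up to 5 called in each direction per comparison (made up to 3 with the smallest unadjusted p), and those of 12 studied genes that were members; others are said to have been taken up after their values were seen.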

Additional observations from a re-analysis of the deposited data

How the results depend on the processing

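The number of members called depended on the processing. None of the 16 fold changes of members named for a comparison changed sign in the alternative fits where they were read. The blocked fits that leave out a replicate number are not among these fits. The members were picked by these same data, so a stable sign is no separate support, and the sizes moved. For LINC01176 in D vs C the log2 fold change ranged from 1.13 to 2.08. From 2, 2, 1 and 0 for I vs C, DI vs D, D vs C and DI vs I, the replicate block gave 11, 3, 17 and 12, and DESeq2 gave 6, 3, 5 and 2. Library size alone gave 3 for D vs C and 1 for DI vs I, and no filter gave 4 for I vs C. An adjusted p under 0.01 gave 1, 1 and 0 for I vs C, DI vs D and D vs C, and fitting only the libraries compared gave 1, 0 and 0. Leaving out 1 library gave 1 to 3, 1 to 3, 0 to 1 and 0 to 0, and 0 for the interaction. Chosen after seeing the data, leaving number 3 out of every group (8 libraries) gave 1, 0 and 0 for I vs C, DI vs D and D vs C, and the replicate block without number 1 gave 0, 2 and 1 for DI vs D, D vs C and DI vs I, without number 2 gave 5, 29 and 33 for I vs C, D vs C and DI vs I. DESeq2's size factors changed no count, and the interaction stayed at 0 under every alternative run. The cause of these shifts was not tested. The block changed no call among the named members other than those printed beside the results. All rows with a LINC number, in place of the members, held 0.142%, 0.152%, 0.138% and 0.145% of counts in C, D, I and DI. Restricting neighbours to 100 kb gave a median distance of 9828.5 bases.

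With a median of 1.38 CPM, most members rest on few counts per library, and differences of genes near 3 counts were not detectable at this depth. Reads that overlap another gene cannot be assigned without strand, which touches the 130 members that overlap one.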
